A study of Mus musculus with 8 samples.

Results

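The genes described here are 9 genes of the chemokine system: the ligands Ccl2, Ccl3, Ccl4, Ccl6, Ccl9 and Cxcl2 and the receptors Ccr1, Ccr2 and Cx3cr1. They were taken by gene symbol from the 19505 genes that the arrays name, as a set chosen with earlier results of these data known, and each was read by 1 transcript cluster, a set of probes for 1 gene. A gene was taken as measured if at least 1 of its 8 log2 signals came to 4.86 or more, the median of the whole table. By that rule 8 of the 9 were measured, and Cxcl2 was not.

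The cells were bone marrow cells of C57BL6/J mice in culture, a system in which M-CSF carries precursors towards macrophages and RANKL turns them into bone-resorbing osteoclasts. PSS1-LMS cultures received 50 ng/ml M-CSF, 100 ng/ml RANKL and, 1 day later, a retrovirus for mutant PSS1. PSS1-WT cultures received both factors and a retrovirus for wild-type PSS1, M-CSF+RANKL cultures both factors, and M-CSF cultures M-CSF alone. PSS1 is phosphatidylserine synthase 1, encoded by Ptdss1. Each culture was sampled on days 6 and 3 with 1 array a day, 8 arrays in all, so no group has a replicate and nothing measures the spread over animals or cultures. The labels used here give neither the mutation, the species of the insert and its promoter, nor the age and sex of the mice, and they do not say whether the cultures without PSS1 received an empty vector.

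Signals are log2 values as deposited, and a signal is compared only with the same gene's signal on other arrays. The brightest of 23 background probe sets lay between 5.54 and 7.13 depending on the array, and a signal at or under its own array's value is called within background. The highest value, 7.13, was that of M-CSF on day 6, and the other arrays had 6.29 or less, so a like signal can be within background on that array alone. Ptdss1 read 17.50 on day 6 and 18.79 on day 3 in PSS1-LMS cultures and 18.06 and 18.91 in PSS1-WT cultures, against 10.36 and 9.56 in M-CSF+RANKL cultures. Of 12 osteoclast marker genes, 12 were above background on each of the 6 arrays with RANKL, against 2 on day 6 and 1 on day 3 in M-CSF cultures. Of 14 macrophage marker genes 9 to 11 were above background on the arrays with RANKL, against 12 on each M-CSF array. None of 8 stromal and osteoblast markers was above background on any array, and of 11 B, T and NK cell markers at most 1 was.

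Chemokines are small secreted proteins that steer migrating leukocytes through receptors of the G protein-coupled class, which signal through inhibitory G proteins, phosphoinositide 3-kinase gamma and Rac. CCL2 acts on CCR2 and draws monocytes out of the marrow. CCL3, CCL6 and CCL9 act on CCR1, and CX3CR1 binds the membrane-tethered chemokine fractalkine. Osteoclast precursors reach bone under chemokine control, and CCL9 with CCR1 is known as a main ligand and receptor pair of mouse osteoclasts.

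Most of these genes lie in clusters of related genes. In RefSeq's order of protein-coding genes, Ccl9, Ccl6, Ccl3 and Ccl4 follow each other on chromosome 11, with Ccl5 at one end. Ccl2 begins another block there, followed by Ccl7, Ccl11, Ccl12, Ccl8 and Ccl1. Ccr1, Ccr1l1, Ccr3 and Ccr2 follow each other on chromosome 9. The 250 bases before the annotated start are shown for 5 genes from these blocks, chosen because Ccr1 and Ccr2, from 1 block, passed the test in opposite directions between M-CSF+RANKL and M-CSF cultures, and because Ccl6 and Ccl3 passed as lower while Ccl9 beside them did not pass. The sequences are RefSeq's on GRCm38.p6, written 5′ to 3′ on the gene's strand, and capitals mark a match to 1 of the motifs named after them.
Ccl9, chr11:83578637-83578886 (- strand): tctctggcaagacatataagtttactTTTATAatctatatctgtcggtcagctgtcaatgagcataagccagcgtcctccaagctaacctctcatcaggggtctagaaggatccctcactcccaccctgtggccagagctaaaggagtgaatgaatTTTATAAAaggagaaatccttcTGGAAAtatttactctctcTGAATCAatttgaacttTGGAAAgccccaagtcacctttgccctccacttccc
Ccl6, chr11:83593088-83593337 (- strand): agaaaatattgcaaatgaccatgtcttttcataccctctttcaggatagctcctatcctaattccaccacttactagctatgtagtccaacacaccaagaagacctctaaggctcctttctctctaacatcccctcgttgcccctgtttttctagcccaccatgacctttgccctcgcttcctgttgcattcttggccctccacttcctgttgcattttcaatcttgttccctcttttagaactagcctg
Ccl3, chr11:83649379-83649628 (- strand): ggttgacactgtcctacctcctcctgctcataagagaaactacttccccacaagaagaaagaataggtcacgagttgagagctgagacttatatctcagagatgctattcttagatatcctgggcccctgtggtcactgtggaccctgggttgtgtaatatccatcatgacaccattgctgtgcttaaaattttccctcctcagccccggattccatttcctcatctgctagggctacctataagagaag
Ccr1, chr9:123968693-123968942 (- strand): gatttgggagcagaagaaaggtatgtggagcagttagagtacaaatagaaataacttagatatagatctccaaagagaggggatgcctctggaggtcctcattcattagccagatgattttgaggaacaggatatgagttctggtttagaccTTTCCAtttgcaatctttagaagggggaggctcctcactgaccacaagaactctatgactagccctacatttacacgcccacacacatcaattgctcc
Ccr2, chr9:124101933-124102182 (+ strand): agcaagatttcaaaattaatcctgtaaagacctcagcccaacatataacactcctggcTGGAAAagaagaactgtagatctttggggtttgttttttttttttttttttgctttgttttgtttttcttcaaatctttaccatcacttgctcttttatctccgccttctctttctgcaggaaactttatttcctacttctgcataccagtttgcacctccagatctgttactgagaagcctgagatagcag

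The motifs searched, on both strands, were the NF-kB consensus, the AP-1 motif TGANTCA, the NFAT core TGGAAA and the TATA box TATAAA, the first 3 being sites of factors that RANKL is known to activate. Windows were at hand for 7 of the 9 genes; Ccl2 and Ccl4 are only named. The Ccl9 window held 1 AP-1 match from 53 to 47 bases before the start, 2 NFAT matches and 3 TATA box matches, 2 of which overlap each other as a forward and a reverse match. Ccr1 and Ccr2 each held 1 NFAT match, at 98 to 93 bases in Ccr1 and at 192 to 187 bases in Ccr2, so this motif was present both in the receptor that was higher with RANKL and in the one that was lower. Ccl3, Ccl6 and Cx3cr1 held none of the 4 motifs. Cxcl2, whose transcript stayed within background, held 1 NF-kB match from 97 to 88 bases before the start and 1 NFAT match. Over 32817 promoter windows of the same length, 0.357% held the NF-kB motif, 6.75% the AP-1 motif, 18.6% the NFAT motif and 12.4% the TATA box. These matches describe letters in a window and are not evidence of binding.

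The comparison of M-CSF+RANKL with M-CSF cultures asks which transcripts go with osteoclast rather than macrophage formation. Averaged over both days, Ccr1 was higher with RANKL and Ccl3, Ccl4, Ccl6, Ccr2 and Cx3cr1 were lower, while Ccl2 and Ccl9 did not pass the test. That is 1 of the 8 measured genes higher and 5 lower, where 14.1% of all 10871 measured genes passed as higher and 12.4% as lower, 26.4% in either direction. Cx3cr1 was measured only through M-CSF arrays, with at most 4.27 on arrays with RANKL, so its being counted is tied to its being lower. The median difference of the 8 genes was -2.89 on the log2 scale, beside 0.03 over all measured genes. The test was limma's moderated test with culture and day as additive terms on all 8 arrays, with Benjamini-Hochberg adjustment over the 10871 genes and a threshold of 0.05. Its error is how far a culture difference changed between the days. In such bulk RNA, fewer cells of a type and less RNA per cell cannot be told apart.

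**Figure D1:**
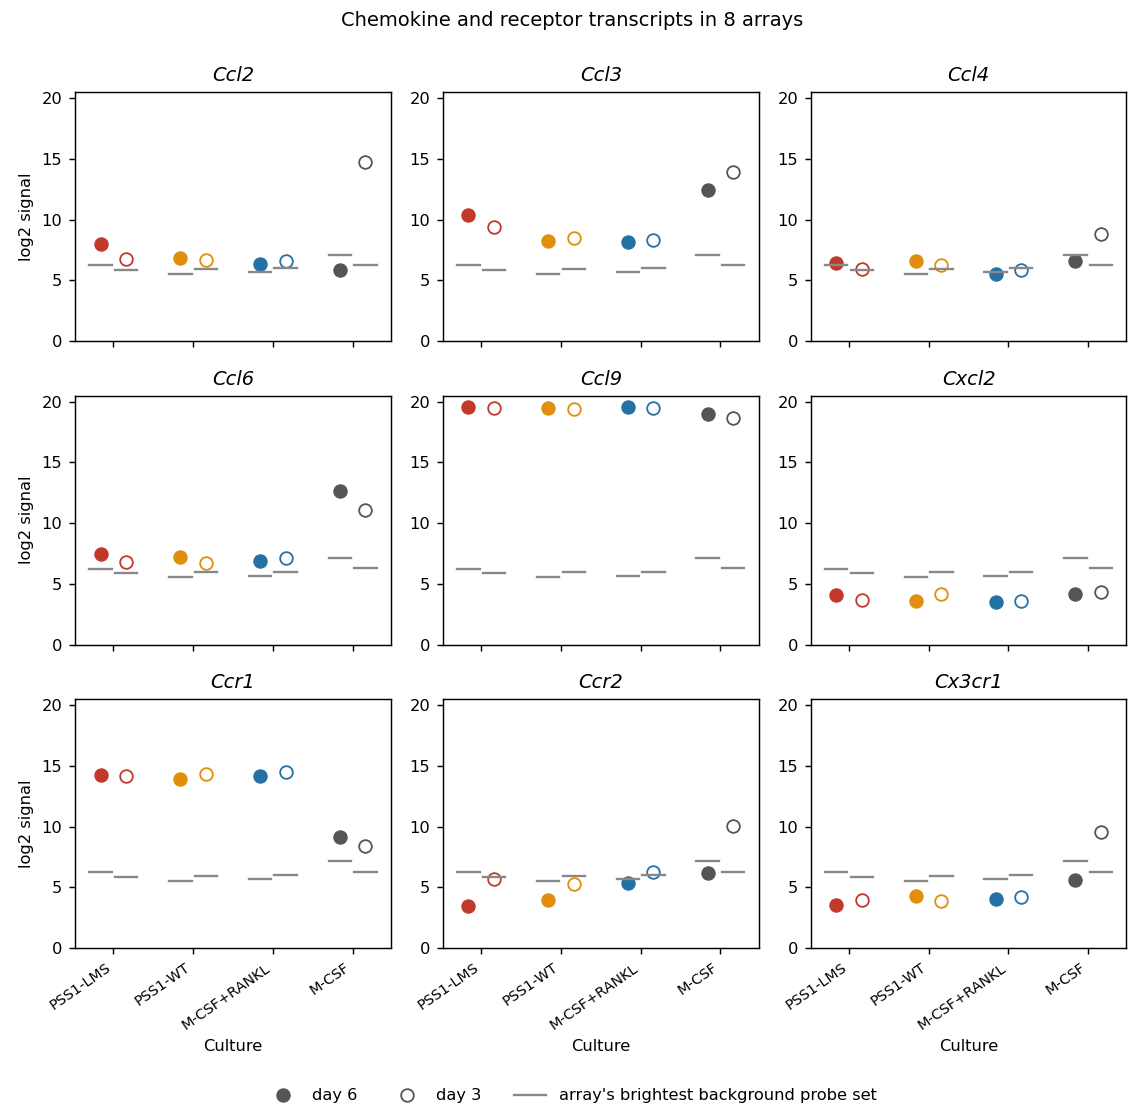
Log2 signal of the 9 genes in each culture on day 6 (filled points) and day 3 (open points), 1 array per point, with grey dashes at each array's brightest background probe set. Ccr1 stands above its M-CSF levels on all 6 arrays with RANKL, Ccl3 and Ccl6 stand below theirs, Ccl2, Ccr2 and Cx3cr1 are high on the M-CSF array of day 3, and Cxcl2 is within background on all 8 arrays.

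Ccl9, also called MIP-1 gamma, read close to the top of the scale in every culture. It read 19.53 on day 6 and 19.45 on day 3 in PSS1-LMS cultures, 19.49 and 19.40 in PSS1-WT cultures and 19.55 and 19.46 in M-CSF+RANKL cultures, against 18.99 and 18.69 in M-CSF cultures. All 6 arrays with RANKL lay above both M-CSF arrays, and the differences were small. The average difference between M-CSF+RANKL and M-CSF was 0.66 ± 0.28 (SE) and did not pass (limma adjusted p = 0.125). It passed (adjusted p = 0.0419) with low signals raised to 7.13, the brightest background probe set of any array. That step changed no Ccl9 signal, only its error, to 0.17, and the set of genes tested. The values sit close to the top of the scale, 19.93, so little room was left for a higher signal to show.

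Ccl6, the neighbour of Ccl9, was lower with RANKL. It read 6.90 on day 6 and 7.15 on day 3 in M-CSF+RANKL cultures, against 12.63 and 11.05 in M-CSF cultures. The groups did not overlap, and the signals of all 6 arrays with RANKL, from 6.70 to 7.49, were above their background. Ccl6 fell by 4.81 ± 0.43 with RANKL (limma adjusted p = 0.00017), which is 28.1-fold over both days, 52.9-fold on day 6 and 14.9-fold on day 3.

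Ccl3 encodes MIP-1 alpha, a ligand of CCR1. It read 8.14 on day 6 and 8.37 on day 3 in M-CSF+RANKL cultures, against 12.47 and 13.96 in M-CSF cultures. Its signal stayed above background on all 8 arrays. Ccl3 fell by 4.97 ± 0.51 with RANKL (limma adjusted p = 0.000338), 31.3-fold over both days, 20.2-fold on day 6 and 48.4-fold on day 3.

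Ccl4, which encodes the chemokine MIP-1 beta, read close to background. It gave 5.53 and 5.88 in M-CSF+RANKL cultures on days 6 and 3, both within background, against 6.58 and 8.86 in M-CSF cultures. Only the M-CSF array of day 3 stood clearly above background. Ccl4 fell by 2.02 ± 0.63 with RANKL (limma adjusted p = 0.0490), at least 7.22-fold on day 3, and no fold can be given on day 6, when both arrays were within background. The call was lost, with adjusted p between 0.0502 and 0.271, under 5 other filters, scalings and treatments of low signals. RefSeq's models of Ccl4 and Ccl3 overlap, and whether their probe sets read separate transcripts was not tested.

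Ccl2 showed the widest difference of any of these genes on a single day. It read 6.32 on day 6 and 6.62 on day 3 in M-CSF+RANKL cultures, against 5.88 and 14.79 in M-CSF cultures. The M-CSF array of day 3 thus stood 289.5-fold above its M-CSF+RANKL counterpart, while on day 6 the M-CSF array was within background. The average difference of -3.87 ± 2.08 did not pass (limma adjusted p = 0.221). It joins a difference of 0.44 on day 6 with one of -8.18 on day 3. In a fit that lets the days differ, added after the data were seen, Ccl2 differed by 0.76 on day 6 and by -8.50 on day 3. The M-CSF side of each of these differences is 1 array. The error of that fit comes from the cultures with RANKL alone and does not measure the spread of M-CSF arrays. Cxcl2, which encodes MIP-2, a ligand of the neutrophil receptor CXCR2, read between 3.50 and 4.33 on the 8 arrays, within background on each, so it gave no difference or fold.

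**Figure D2:**
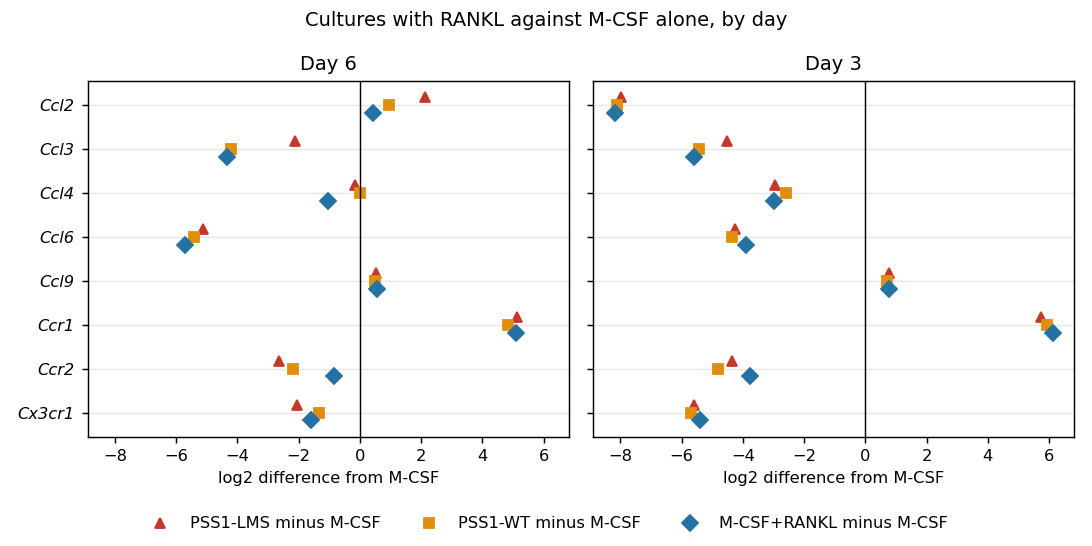
Log2 difference of each culture with RANKL from the M-CSF culture on day 6 (left) and day 3 (right), 1 array on each side of every difference, for the 8 measured genes. The differences of Ccr1 are near 5 or 6 on both days, those of Ccl6 and Ccl3 are below 0 on both, and those of Ccl2 are near -8 on day 3 and above 0 on day 6.

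Among the receptors, Ccr1 was the gene that rose. It read 14.20 on day 6 and 14.52 on day 3 in M-CSF+RANKL cultures, against 9.10 and 8.41 in M-CSF cultures. The 6 arrays with RANKL lay between 13.95 and 14.52 and were all far above both M-CSF arrays. Ccr1 rose by 5.60 ± 0.35 (limma adjusted p = 3.45e-05), 48.7-fold over both days, 34.2-fold on day 6 and 69.2-fold on day 3. Of the CCR1 ligands of the set, Ccl9 stayed near the top of the scale with RANKL, whereas Ccl3 and Ccl6 were lower there.

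Ccr2, the CCL2 receptor of inflammatory monocytes, read 5.32 on day 6 and 6.28 on day 3 in M-CSF+RANKL cultures, against 6.15 and 10.04 in M-CSF cultures. It was above background only on the day 3 arrays of these cultures. Ccr2 fell by 2.29 ± 0.64 with RANKL (limma adjusted p = 0.0333), 13.5-fold on day 3, and no fold can be given for day 6. Cx3cr1, the fractalkine receptor that marks resident monocytes and some osteoclast precursors, read 4.02 and 4.19 in M-CSF+RANKL cultures, against 5.62 and 9.57 in M-CSF cultures. Its only signal above background was that of M-CSF on day 3. Cx3cr1 fell by 3.49 ± 0.91 (limma adjusted p = 0.0257), at least 11.8-fold on day 3. Both calls were lost when signals under the brightest background probe set were raised to it, with adjusted p of 0.260 for Ccr2 and 0.263 for Cx3cr1.

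The calls of Ccl4, Ccr2 and Cx3cr1 also rest on single arrays. Leaving out either array of the same PSS1 culture gave the same fit here, so the fits that left out 1 array were not all separate checks. With either M-CSF+RANKL array left out, only Ccl3, Ccl6 and Ccr1 passed. Over the 8 fits that each left out 1 array, Ccl4 passed in 1, Ccr2 in 2 and Cx3cr1 in 6. The 14 macrophage markers were also lower with RANKL. Their mean log2 signal was 8.20 on day 6 and 7.80 on day 3 in M-CSF+RANKL cultures, against 14.29 and 12.66 in M-CSF cultures. Of 13 measured ones 12 passed as lower, beside 12.4% of all measured genes, and Cd163 among them was measured only through M-CSF. In M-CSF cultures their mean was higher on day 6 than on day 3, whereas Ccl4, Ccr2 and Cx3cr1 were lower. The part of these markers in the chemokine differences was not tested.

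The next comparison asks whether the change with time differed between cultures with and without RANKL. In M-CSF cultures Ccl2, Ccl4, Ccr2 and Cx3cr1 were all much dimmer on day 6 than on day 3, and in the 3 cultures with RANKL these genes were already low on day 3. There Cx3cr1 was within background on every day 3 array, Ccr2 in the PSS1-LMS and PSS1-WT cultures, and Ccl4 in M-CSF+RANKL cultures. The other day 3 signals of Ccr2 and Ccl4 with RANKL were close to background. Signals of these genes had little room to fall, so a smaller fall cannot be told from a signal at its floor. The difference in day change, cultures with RANKL minus M-CSF, passed for 5 of 8 genes, all of them positive, which means a smaller fall or none with RANKL. Over all measured genes 9.49% passed as positive and 12.8% as negative. The fit used all 8 arrays, and its M-CSF side is a single pair of arrays, so its error comes from the 3 cultures with RANKL alone.

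Ccl2 gave the largest such difference of the 8 genes, 9.26 ± 0.51 (limma adjusted p = 4.57e-08). Its day 6 signal in M-CSF cultures was at least 203-fold lower than on day 3, a change of -8.91, against -0.29 in M-CSF+RANKL cultures. The signal that set it apart is that of 1 array, M-CSF on day 3. Cx3cr1 followed with 3.89 ± 0.43 (adjusted p = 2.64e-05), and its signal in M-CSF cultures was at least 5.42-fold lower on day 6. Ccl4 gave 2.44 ± 0.44 (adjusted p = 0.00121), being at least 3.32-fold lower on day 6 in M-CSF cultures. Ccr2 gave 2.41 ± 0.48 (adjusted p = 0.00228), being at least 7.53-fold lower there. Each of these falls ended within background on M-CSF day 6, the array with the highest background, 7.13. The differences are therefore on signals as deposited and the folds are bounds.

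Ccl3 gave 1.63 ± 0.48 (limma adjusted p = 0.0250). It was 2.81-fold lower on day 6 in M-CSF cultures, 1.17-fold lower in M-CSF+RANKL cultures and 1.88-fold higher in PSS1-LMS cultures. Without either PSS1-LMS array the Ccl3 difference was 1.24 and no longer passed. It did not pass either with low signals raised to the brightest background probe set of any array (1.63, adjusted p = 0.208). That step changed no Ccl3 signal, only the error and the set of genes tested. Ccl6 was 2.98-fold higher on day 6 in M-CSF cultures, and its difference in day change, -1.25 ± 0.45, narrowly missed the threshold (adjusted p = 0.0572). It passed under 4 other settings, with adjusted p between 0.0321 and 0.0492. Over the 6 fits that left out 1 array it ran from -1.44 to -0.97, and leaving out either array of the same culture gave the same value. Ccr1 (-0.91 ± 0.41, adjusted p = 0.128) and Ccl9 (-0.22 ± 0.40, adjusted p = 0.729) did not pass.

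**Figure D3:**
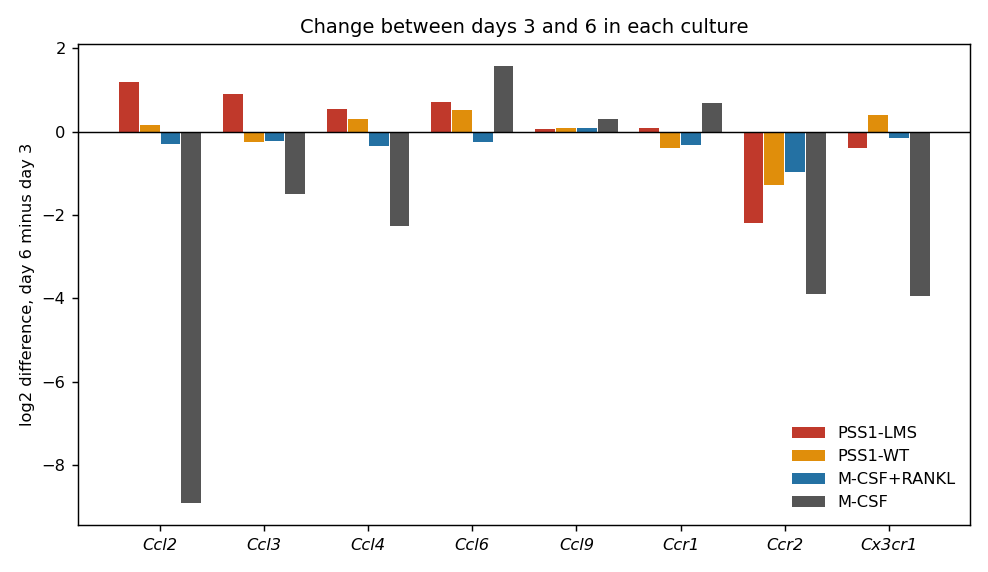
Log2 difference, day 6 minus day 3, of the 8 measured genes in each of the 4 cultures, 1 array per day. The M-CSF bar of Ccl2 reaches -8.91 and those of Ccr2 and Cx3cr1 are near -4, while Ccr2 is below 0 in every culture.

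Within the 3 cultures with RANKL, Ccr2 was the gene that changed with time. It read 3.49 on day 6 and 5.69 on day 3 in PSS1-LMS cultures, 3.95 and 5.23 in PSS1-WT cultures and 5.32 and 6.28 in M-CSF+RANKL cultures. It was lower on day 6 in all 3, and 5 of these 6 signals were within background. Ccr2 fell by 1.48 ± 0.24 (limma adjusted p = 0.00209, fitted on the 6 arrays), and the other 7 measured genes did not pass, with adjusted p of 0.511 and above. That is 1 of 8 genes lower, beside 2.07% of all measured genes lower, 1.31% higher and 3.38% in either direction. With signals raised to the brightest background probe set of any array, Ccr2 could not be tested and no gene of the set passed. Averaged over all 4 cultures, no gene of the set passed for the day effect by limma, beside 0.101% of all measured genes higher, 0.184% lower and 0.285% in either direction, and 1, Ccr2 at -2.09 ± 0.45 (adjusted p = 0.255), had an unadjusted p under 0.05. Without either M-CSF array Ccr2 passed, at -1.48 (adjusted p = 0.00209), since the fit then rests on the cultures with RANKL.

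The means of 2 other marker lists, of monocytes and of neutrophils, moved with time in the same direction as Ccr2. Both lists hold Elane, so they are not independent. The mean log2 signal of 9 monocyte markers lay between 5.01 and 5.58 on the day 6 arrays, against 7.13 to 7.62 on the day 3 arrays. That of 11 neutrophil markers lay between 4.47 and 5.69 on day 6, against 8.43 to 8.70 on day 3. Both lists were lower on average on day 6 in M-CSF cultures as well as in the 3 cultures with RANKL. Within the cultures with RANKL, 4 of 7 measured monocyte markers and 9 of 11 neutrophil markers passed as lower, beside 2.07% of all measured genes. The monocyte marker Vcan went the other way, with a mean of 6.51 on day 6 against 6.09 on day 3. On day 3 the monocyte markers averaged 7.27 in M-CSF+RANKL cultures and 7.62 in M-CSF cultures. The part of these cells in the chemokine differences was not tested.

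The other ligands and receptors were looked up by lists of 31 ligands and 22 receptors. Of the ligands 31 were named on the array and 12 were measured, and 3 were lower with RANKL and none higher, with a median of -0.59, beside 12.4% of all measured genes lower and 14.1% higher. Pf4, platelet factor 4, fell by 8.17 ± 0.39 with RANKL (limma adjusted p = 1.32e-05), and Cxcl16, a membrane-bound ligand of CXCR6, fell by 3.43 ± 0.50 (adjusted p = 0.00198). Cxcl14 fell by 2.88 ± 0.44 (adjusted p = 0.00228) to within background. It was measured only through M-CSF, with at most 4.85 on arrays with RANKL. Pf4 read 6.00 and 7.49 in M-CSF+RANKL cultures on days 6 and 3, against 14.81 and 15.03 in M-CSF cultures, so it was bright in M-CSF cultures on both days, unlike Ccl2. Of the receptors 21 were named and 8 measured, and 1 was higher and 3 lower, with a median of -0.79, beside the same 14.1% higher and 12.4% lower.

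Ccr3, the eotaxin receptor, was the other receptor that rose. It lies between Ccr1 and Ccr2 in the gene order and read 12.78 on day 6 and 12.80 on day 3 in M-CSF+RANKL cultures, against 10.74 and 7.31 in M-CSF cultures. Ccr3 rose by 3.77 ± 0.82 with RANKL (limma adjusted p = 0.0122). Cmklr1, the chemerin receptor, fell by 4.39 ± 0.92 (adjusted p = 0.0102) to within background. Ccrl2, which presents chemerin and does not signal, fell by 2.08 ± 0.45 (adjusted p = 0.0120), though it was within background on all 8 arrays. Ccrl2 was measured only through M-CSF, with at most 3.31 on arrays with RANKL. Cxcr3 fell by 1.19 ± 0.30 (adjusted p = 0.0220), though it was above background on only 1 array and within it on every array with RANKL.

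**Figure D4:**
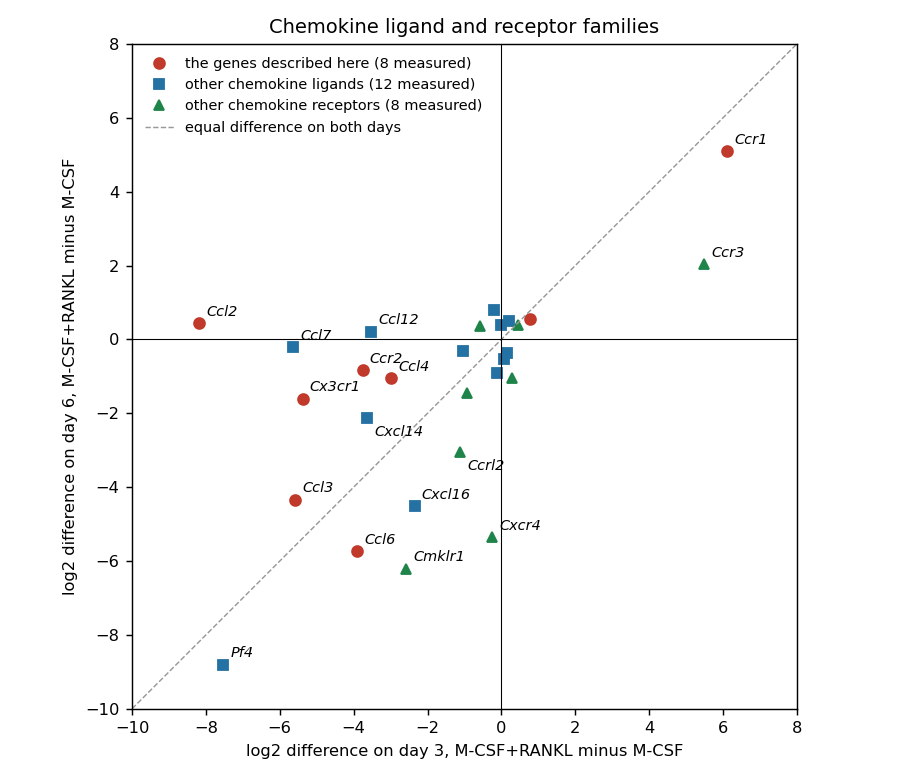
Log2 difference between M-CSF+RANKL and M-CSF on day 3 (horizontal axis) and day 6 (vertical axis) for the 8 measured genes described here, 12 other chemokine ligands and 8 other chemokine receptors, 1 array on each side of a difference. Ccl2, Ccl7 and Ccl12 lie far to the left and near 0 on the vertical axis, Cxcr4 lies low and near 0 on the horizontal axis, and Ccr1 and Ccr3 stand alone at the upper right.

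The difference in day change was positive for 3 of the other 12 ligands and negative for 1, beside 9.49% of all measured genes positive and 12.8% negative. Among the positive ones were Ccl7 and Ccl12, further CCR2 ligands from the block that Ccl2 begins. Ccl7 read 5.09 on day 6 and 5.33 on day 3 in M-CSF+RANKL cultures, against 5.31 and 10.96 in M-CSF cultures, and its difference in day change was 5.75 ± 0.42 (limma adjusted p = 7.67e-07). Ccl12 read 3.79 and 3.70 in M-CSF+RANKL cultures, against 3.58 and 7.23 in M-CSF cultures, and gave 3.33 ± 0.54 (adjusted p = 0.000572). Ccl7 and Ccl12 were above background on 1 array, M-CSF on day 3, which is also the array on which Ccl2 was highest. Ccl12 was measured only through that array. Cxcl14 gave 1.48 ± 0.41 (adjusted p = 0.0174) and Cxcl16 -1.82 ± 0.43 (adjusted p = 0.00669).

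Of the 8 other receptors measured, 5 had a negative difference in day change and none a positive one, beside 12.8% and 9.49% of all measured genes. Cxcr4, the receptor that holds cells in the marrow, read 5.07 and 5.73 in M-CSF+RANKL cultures on days 6 and 3, against 10.42 and 5.98 in M-CSF cultures. In M-CSF cultures it was at least 17.5-fold higher on day 6, and its difference in day change was -5.58 ± 0.43 (limma adjusted p = 1.57e-06). Cmklr1 gave -3.95 ± 0.41 (adjusted p = 1.58e-05), Ccr3 -3.51 ± 0.40 (adjusted p = 3.45e-05) and Ccr1l1 -1.64 ± 0.44 (adjusted p = 0.0156), the last within background on all 8 arrays. Ccr1l1 was measured only through M-CSF, with at most 3.82 on arrays with RANKL. In M-CSF cultures the receptors Cxcr4 and Cmklr1 were therefore brighter on day 6, when Ccr2 and Cx3cr1 were dimmer. Within the cultures with RANKL, Cxcl16 was higher on day 6 by 0.84 ± 0.21 (adjusted p = 0.0406). Cxcr4 fell by 1.14 ± 0.22 (adjusted p = 0.00810), with 4 of the 6 signals within background. Ppbp, within background on all 8 arrays, fell by 1.40 ± 0.20 (adjusted p = 0.000930).

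Of 34 genes that carry the signal inside the cell, 29 were named and measured, and 14 were lower and 3 higher with RANKL, with a median of -0.86, beside 12.4% of all measured genes lower and 14.1% higher. Grk3, a kinase that desensitises receptors, rose by 7.93 ± 0.38 (limma adjusted p = 1.32e-05). Gng2, a G protein gamma subunit, fell by 6.17 ± 0.33 (adjusted p = 1.84e-05), and Pik3cg, the catalytic subunit of phosphoinositide 3-kinase gamma, by 5.14 ± 0.30 (adjusted p = 2.92e-05). Rgs18, which shortens G protein signals, fell by 4.77 ± 0.37 (adjusted p = 8.95e-05). Beside 9.49% of all measured genes positive and 12.8% negative, the difference in day change was positive for 1 of these genes, Rgs1 at 3.24 ± 0.46 (adjusted p = 0.000201), and negative for Rgs2 (-2.32 ± 0.41), Rac2 (-1.95 ± 0.42) and Rgs10 (-1.59 ± 0.40), each with adjusted p of 0.011 or below. Within the cultures with RANKL, Rgs1 rose by 1.90 ± 0.23 by day 6 (adjusted p = 0.000166) and Dock2, a Rac activator of migrating leukocytes, by 0.94 ± 0.23 (adjusted p = 0.0328). No gene of these 3 lists passed in a comparison with a PSS1 culture.

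The cultures with PSS1 were each set against the same 2 M-CSF+RANKL arrays, so the differences share those values. In PSS1-LMS cultures Ccl3 was higher, and it was the single gene of the 8 to pass, beside 0.156% of all measured genes higher, 0.0184% lower and 0.175% in either direction. Ccl3 read 10.35 on day 6 and 9.44 on day 3 in PSS1-LMS cultures, against 8.14 and 8.37 in M-CSF+RANKL cultures. Both PSS1-LMS signals stayed below those of the M-CSF arrays. Ccl3 rose by 1.65 ± 0.30 (limma adjusted p = 0.0348, fitted on the 6 arrays with RANKL), 3.13-fold over both days, 4.65-fold on day 6 and 2.11-fold on day 3.

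This call depended on the setting. The value stayed between 1.63 and 1.67 under other filters, scalings and fits, but its adjusted p was 0.0733 without a filter, 0.0778 with equal array medians and 0.0608 after quantile normalization. It was 0.411 with low signals raised, which changed no Ccl3 signal, and 1 with all 8 arrays in the fit. Without the PSS1-LMS array of day 6 the difference was 1.07 (adjusted p = 0.569), and leaving out M-CSF+RANKL on day 6 gave 1.37 (adjusted p = 0.0895). The mean log2 signal of the 14 macrophage markers was 8.71 on day 6 and 8.07 on day 3 in PSS1-LMS cultures, against 8.20 and 7.80 in M-CSF+RANKL cultures. None of the 13 measured ones passed, and their part in the Ccl3 difference was not tested. Of 11 neutrophil markers 1 passed as higher, Mmp8 by 1.46 ± 0.27 (limma adjusted p = 0.0388), beside 0.156% of all measured genes. The median difference of the 11 was 0.04. Between M-CSF+RANKL and M-CSF cultures Mmp8 fell by 4.66, while the median of the same list was 0.23, so Mmp8 does not stand for the list.

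**Figure D5:**
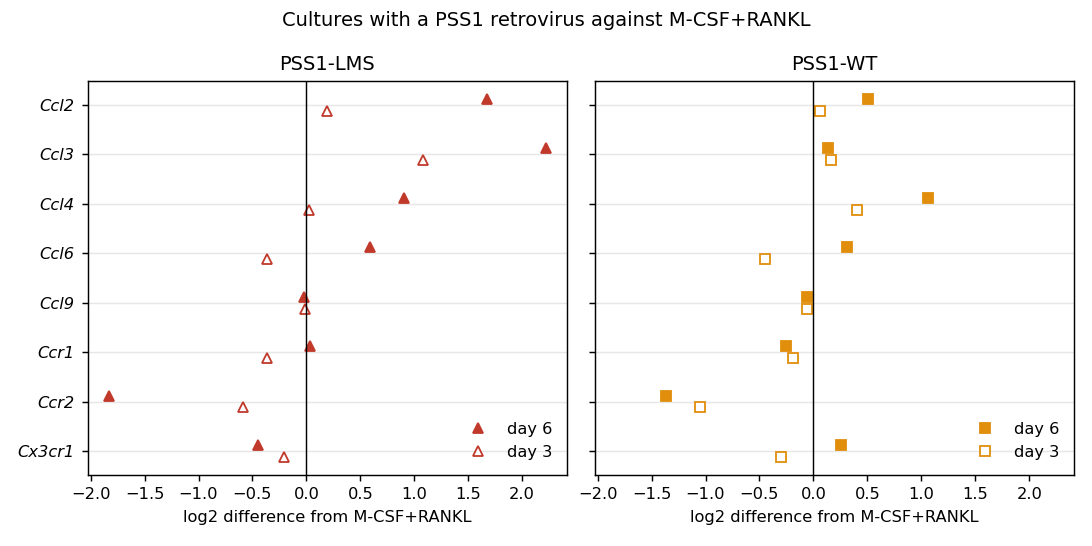
Log2 difference of PSS1-LMS (left) and PSS1-WT (right) cultures from M-CSF+RANKL cultures on day 6 (filled) and day 3 (open) for the 8 measured genes, 1 array on each side of a difference. With PSS1-LMS, Ccl3 is at 2.22 on day 6 and 1.08 on day 3 and Ccl2 at 1.67 and 0.19; with PSS1-WT, Ccl3 is at 0.14 and 0.17.

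The other genes did not pass with PSS1-LMS on the 6 arrays. Ccl2 read 7.99 on day 6 and 6.81 on day 3 in PSS1-LMS cultures, against 6.32 and 6.62 in M-CSF+RANKL cultures, a difference of 0.93 ± 0.31 (limma adjusted p = 0.484). The Ccl2 difference was 1.56 without PSS1-LMS on day 3 and 1.41 without M-CSF+RANKL on day 3. It was 0.30 without PSS1-LMS on day 6 and 0.45 without M-CSF+RANKL on day 6. Ccr2 differed by -1.21 ± 0.29 (adjusted p = 0.197), with 5 of the 6 signals in the fit within background. Over the 6 fits that left out 1 array its difference ran from -1.75 to -0.67, the last without PSS1-LMS on day 6. Leaving out either PSS1-WT array gave the same fit. Ccl4 differed by 0.47 ± 0.27 (adjusted p = 0.873). Cx3cr1 differed by -0.33 ± 0.26 (adjusted p = 0.950), with every signal in the fit within background. Ccl6, Ccl9 and Ccr1 differed by between -0.17 and 0.12, with adjusted p of 0.988 and above.

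With PSS1-WT no gene of the set passed by limma, beside 0.0092% of all measured genes, which is Ptdss1 alone. Ccr2 and Ccl4 were the 2 with an unadjusted p under 0.05. Ccr2 read 3.95 on day 6 and 5.23 on day 3 in PSS1-WT cultures, against 5.32 and 6.28 in M-CSF+RANKL cultures, and the difference was -1.21 ± 0.29 (limma adjusted p = 0.398). Both PSS1-WT signals of Ccr2 and its M-CSF+RANKL signal of day 6 were within background, so no fold can be given over both days. Ccr2 passed without M-CSF+RANKL on day 3 (-1.60) and without either PSS1-LMS array. In the former fit every Ccr2 signal was within background. Ccl4 read 6.60 and 6.29 in PSS1-WT cultures, against 5.53 and 5.88 in M-CSF+RANKL cultures, and the difference was 0.74 ± 0.27 (adjusted p = 0.655). Ccl3 differed by 0.15 ± 0.30 (adjusted p = 0.953), and the other 5 genes by between -0.22 and 0.28, with adjusted p of 0.885 and above.

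PSS1-LMS and PSS1-WT cultures were then compared with each other, which asks what the mutation adds. None of the 8 genes passed by limma, nor did any of the 10871 measured genes (0%), of which 773 had an unadjusted p under 0.05. Ccl3, the 1 gene of the set among those, read 10.35 on day 6 and 9.44 on day 3 in PSS1-LMS cultures, against 8.27 and 8.53 in PSS1-WT cultures. The difference was 1.50 ± 0.30 (limma adjusted p = 0.186), 2.82-fold. It passed with adjusted p of 0.0477 when dim genes were left out and 0.0457 with a trended, robust variance. Over the 6 fits that left out 1 array the difference ran from 0.92, without PSS1-LMS on day 6, to 2.07, without PSS1-LMS on day 3. It was 1.20 without PSS1-WT on day 6, and leaving out either M-CSF+RANKL array gave the same fit. Ccl2 differed by 0.64 ± 0.31 (adjusted p = 0.704) and Ccr2 by 0.00 ± 0.29 (adjusted p = 1).

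The correlations across the 8 arrays are a description, since these arrays share the split by RANKL. Ccl6 and Ccr1 ran opposite to each other (Pearson r = -0.96), and Ccl9 ran with Ccr1 (r = 0.97). Ccl2, Ccl4 and Cx3cr1 ran together, with r of 0.92 for Ccl2 and Ccl4, 0.88 for Ccl2 and Cx3cr1 and 0.93 for Ccl4 and Cx3cr1. Cx3cr1 also ran with Ccr2 (r = 0.91) and opposite to Ccl9 (r = -0.94) and Ccr1 (r = -0.88). Ccl2, Ccl3, Ccl4, Ccr2 and Cx3cr1 were each highest on the M-CSF array of day 3. The measured genes whose signals spanned at least 2 log2 units gave the closest patterns elsewhere on the array. Nearest to Ccr1 were Coq8a and Atp6v1d (r of 0.999) and Snx10 (r = 0.9985), and nearest to Ccl6 were Cebpa, Eps15 (r of 0.998) and C1qc (r = 0.997). Nearest to Ccl3 were Glrx, Map3k5 and Gm5150 (r of 0.99), and nearest to Ccl9 were Gtf2h3, Gpr137b and Mfge8 (r of 0.99). Nearest to Ccl2 were Id1 (r = 0.99), Cdc7 and Tlcd3a (r of 0.98), and nearest to Ccl4 were Lin9 (r = 0.99), Atad2 (r = 0.98) and Stxbp6 (r = 0.97). Nearest to Ccr2 were Trem3, Kcne3 (r of 0.97) and Lrp8 (r = 0.96), and nearest to Cx3cr1 were Gclc, Cep55 and Skil (r between 0.98 and 0.99).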

How the data were processed

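Total RNA was measured on 8 Affymetrix arrays, 1 for each of 4 cultures on 2 days, from biotinylated cDNA made of 500 ng RNA per the labels' protocols. The authors deposited log2 signals per transcript cluster; that they are log2 was read from the values (1.25 to 19.93, the top being log2 of 1000000). Summarisation and normalization are not given in the sources used here, and the values were used as deposited. No depth applies to arrays, and their number limits the precision.

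Gene names came from the platform annotation in GEO. The brightest cluster by mean stood for a gene, and 10871 of 19505 genes were measured. limma 3.58.1 in R 4.3.3 (lmFit, eBayes) fitted culture and day, on 8 arrays for RANKL and day and on the 6 arrays with RANKL for PSS1 and for day with RANKL. A term for day by RANKL was added for the difference in day change. Residual degrees of freedom were 3 or 2 beside a pooled prior of 4.71 or 13.3, so the PSS1 p-values rest mostly on spread shared by all genes, and none covers spread over animals or cultures. Folds use signals raised to the array's brightest background probe set on the dim side ("at least"), and none is given where both sides were within background. The fits were tested on simulated data.

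The members and lists were chosen with earlier results of these data known. All 9 members are named, with up to 4 genes of each other list that passed in a comparison and the 3 genes most like each measured member. Other filters, scalings, variance models and left-out arrays were tried. Motifs were searched in RefSeq promoter windows with Python 3.11.15.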

Additional observations from a re-analysis of the deposited data

Results flagged for a closer look

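The day change differed between cultures with RANKL and M-CSF cultures, by a test of the difference itself, for 5 genes. The difference in day change, cultures with RANKL minus M-CSF on the log2 scale, was 9.26 for Ccl2, 3.89 for Cx3cr1, 2.44 for Ccl4, 2.41 for Ccr2 and 1.63 for Ccl3 (limma adjusted p between 4.57e-08 and 0.0250). Each difference rests on 1 pair of M-CSF arrays, and over all measured genes 22.3% passed in either direction. In cultures with RANKL the signals of Cx3cr1, Ccr2 and Ccl4 were within or close to background on day 3 and had little room to fall. The Ccl3 call was lost without either PSS1-LMS array (1.24). It was also lost with low signals raised (adjusted p = 0.208), which changed no Ccl3 signal.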

How the results depend on the processing

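With no replicate of any group, the precision rests on 8 arrays, and dim genes are limited by background. Days were compared within cultures in every fit; no pairing by replicate number applies, since each group is 1 array. For genes that passed in some setting, 259 of 322 alternative values kept direction and side of the threshold, 33 lost the call, 28 gained it and 2 changed sign. Some of these values repeat 1 fit, as when either array of a culture outside a comparison was left out, so they are not all separate checks. The sign changes are those of Ccl2 with RANKL, on day 6 alone (an estimate chosen after seeing the data) and without the M-CSF array of day 3. Both are the same estimate, 0.76. Leaving out arrays moved the Ccl2 difference between -8.50 and 0.76. Without either PSS1-LMS array the error of the PSS1-LMS difference from M-CSF+RANKL was 0.385 for Ccl2, Ccl3 and Ccr2 alike, so it was not specific to the gene. Of 498 values of the 35 results that never passed, 44 changed sign, the largest of them 0.54 in size. The number of genes that passed within cultures with RANKL by day was 0 when low signals were raised. The number with PSS1-LMS was 0 without a filter, with equal medians, after quantile normalization, with low signals raised and with all 8 arrays. For PSS1-LMS against PSS1-WT it was 1 with the stricter filter and with a trended, robust variance. Leaving out each array in turn gave 3 to 7 genes for RANKL, 0 to 1 for day, 1 for day with RANKL, 5 to 6 for the difference in day change, 0 to 1 for PSS1-WT, 0 to 3 for PSS1-LMS and 0 to 1 for PSS1-LMS against PSS1-WT. The causes were not tested.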
